A study of Ovis aries with 24 samples.

Results

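SLC2A3, VEGFA and LDHA, textbook targets of the hypoxia-inducible factors, were followed through birth in 2 great vessels of the sheep, the ductus arteriosus and the ascending aorta. The members were all probes whose name or description on the array gives 1 of these 3 genes, which found 6 of 15008 probes, 2 for each of these 3 of 710 named genes, and all 6 were among the 14000 probes tested. The 3 genes were chosen by their log2 signals on these arrays, which earlier results showed higher in the newborn ductus and lower in the newborn aorta. Their newborn values and every difference that shares arrays with them are therefore descriptions with standard errors and no p-value. Only the preterm vessels, whose arrays played no part in that choice, gave a test.

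Total RNA came from vessel segments of sheep, with the piece of aorta taken next to the ductus, per the labels. The groups were ductus and aorta of preterm fetuses (97 days of gestation), of near-term fetuses (136 days) and of newborn lambs 12 hours after birth, each with 4 arrays from 4 animals. The sample titles give 100 and 140 days for the fetuses. The labels name no strain, sex, treatment or genetic change in any group. Nothing in the labels ties a ductus to the aorta of the same animal. Whole segments were used, in which fewer cells of a type and less RNA per cell cannot be told apart.

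When oxygen is scarce, the alpha subunits of the hypoxia-inducible factors escape degradation, pair with ARNT and switch on genes for glucose uptake, glycolysis and blood vessel growth. SLC2A3 encodes GLUT3, a high-affinity glucose transporter of the cell surface. LDHA encodes the lactate dehydrogenase subunit that favours conversion of pyruvate to lactate. VEGFA encodes the growth factor that signals through KDR to endothelial cells. The ductus joins the pulmonary artery to the aorta in the fetus and constricts after birth, when its muscular wall is known to become hypoxic and to be remodelled.

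Signals are given as log2 of the processed spot intensity relative to the 75th percentile of the same array, so that a difference of 1 is a doubling, and a birth difference is the newborn minus the near-term mean of a vessel. Each gene's brighter probe, by mean signal over the arrays, is given first and its dimmer probe second. Signals of different probes are not set against each other.

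Each stage was run on a slide of its own with ductus samples in its first column and aorta samples in the second, so the effects of slide and stage cannot be told apart, nor can those of column and vessel. The detection limit that the scanner software reports for the spike-in controls was above 1.5 on 2 preterm ductus, 3 preterm aorta, 2 near-term ductus and 3 near-term aorta arrays, and on 0 newborn ductus and 2 newborn aorta arrays. Spots well above background made up 66.2% to 94.4% of an array. CNN1 and MYLK, the 2 of 10 smooth muscle markers that were measured, were well above background in every group, with a summed level of 84.9 to 145 times the 75th percentile in newborn ductus and 65.9 to 148.5 times in newborn aorta. The number of arrays limits the precision.

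The glucose transporter gene SLC2A3 was higher in the newborn ductus than in every other group and lower in the newborn aorta than in every other group. Its brighter probe read 5.84, 5.73, 5.94 and 5.30 in the 4 newborn ductus arrays and 1.48, 1.23, 1.77 and 1.22 in the 4 newborn aorta arrays. In near-term fetuses it read 2.76, 2.71, 3.08 and 3.64 in the ductus and 2.40, 1.93, 2.75 and 3.20 in the aorta. The lowest newborn ductus array thus lay above the highest near-term ductus array, and the highest newborn aorta array lay below the lowest near-term aorta array.

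The preterm fetuses resembled the near-term ones in this gene. SLC2A3 read 2.63, 3.58, 2.55 and 2.38 in preterm ductus and 2.61, 2.36, 2.01 and 1.90 in preterm aorta, and these groups overlapped. The near-term minus preterm difference was 0.26 ± 0.29 (SE) in the ductus and 0.35 ± 0.29 in the aorta.

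Across birth the GLUT3 transcript differed in opposite directions in the vessels. The newborn ductus averaged 5.70 ± 0.28 (SD, n = 4) against 3.05 ± 0.43 in the near-term ductus, a log2 difference of 2.66 ± 0.29 (SE) or 6.31-fold. The newborn aorta averaged 1.43 ± 0.26 against 2.57 ± 0.54 in the near-term aorta, a log2 difference of -1.14 ± 0.29, which is 2.21-fold lower. With arrays weighted by their quality the aortic difference was smaller, at -0.53 ± 0.29, while the ductus minus aorta difference of the birth differences was 3.15. Unweighted, that difference of differences was 3.80 ± 0.41 (SE), or 13.9-fold. A larger one was seen in 10 of 14000 probes, among them the dimmer SLC2A3 probe and both VEGFA probes. This rank describes a contrast that chose the genes. SLC2A3 was 19.4-fold higher in newborn ductus than in newborn aorta (4.28 ± 0.29), against 1.39-fold (0.48 ± 0.29) between the near-term vessels.

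The dimmer SLC2A3 probe gave the same picture from another spot. It averaged 5.19 ± 0.32 (SD) in newborn ductus and 0.87 ± 0.09 in newborn aorta, and 2.41 ± 0.51 in near-term ductus and 1.93 ± 0.57 in near-term aorta. The birth differences were 2.78 ± 0.32 (SE) in the ductus and -1.06 ± 0.32 in the aorta, and again the newborn and near-term arrays of each vessel did not overlap. Across the 24 arrays the probes correlated at r = 0.996, and at 0.95 after the group means were taken out.

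**Figure D1:**
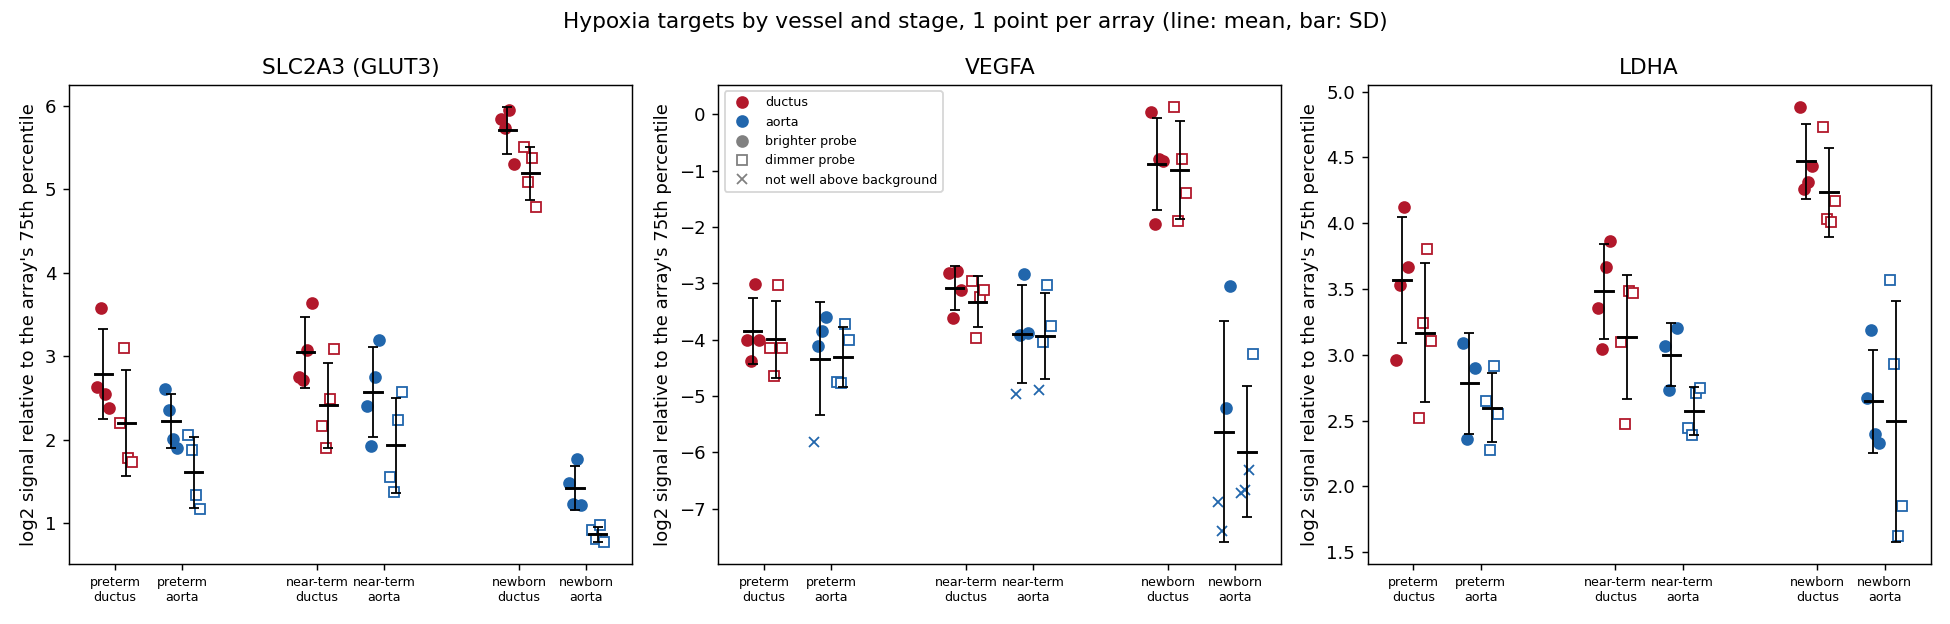
Log2 signal relative to the array's 75th percentile (y axis) of SLC2A3, VEGFA and LDHA in ductus (red) and aorta (blue) at each stage (x axis), 1 point per array, with filled circles for the brighter probe, open squares for the dimmer probe, crosses for spots not well above background, and lines and bars for the mean and SD of each group. Newborn ductus lies above all other groups for each gene, and newborn aorta lies wholly below the others only for SLC2A3.

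VEGFA was the gene most limited by background. The processed intensity of its brighter probe was 1031, 220.7, 377.6 and 594.1 in newborn ductus, against 5.06, 3.40, 16.6 and 101.2 in newborn aorta. In near-term fetuses it was 130.7, 66.1, 166.3 and 79.0 in the ductus and 10.3, 54.5, 103.8 and 59.6 in the aorta. Every newborn ductus array lay above every near-term ductus array, whereas newborn aorta replicate 4 lay among the near-term aorta arrays.

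On the log2 scale the brighter probe averaged -0.89 ± 0.81 (SD, n = 4) in newborn ductus and -3.08 ± 0.39 in near-term ductus. The birth difference in the ductus was 2.20 ± 0.72 (SE), or 4.59-fold. In the aorta the averages were -5.63 ± 1.96 (SD) in newborns and -3.90 ± 0.87 near term, with a birth difference of -1.73 ± 0.72 (SE). With only the groups compared in the fit, the SE of the birth difference was 0.96 in the aorta and 0.42 in the ductus. The preterm means of -3.85 ± 0.59 (SD) in the ductus and -4.34 ± 1.00 in the aorta lay within the range of the near-term arrays of the same vessel or just under it.

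The low VEGFA values in the aorta were partly at the limit of what these arrays measure. The brighter probe was well above background on 2 of 4 newborn aorta, 3 of 4 near-term aorta and 3 of 4 preterm aorta arrays, and the dimmer one on 1, 3 and 4 of them, while both were on all 12 ductus arrays. When each value was raised to at least the lowest signal well above background on its array, the birth difference in the aorta was -0.99 ± 0.58 (SE) for the brighter probe and -1.37 for the dimmer one. Newborn ductus then exceeded newborn aorta by 3.99, or 15.9-fold, for the brighter probe and by 4.31, or 19.9-fold, for the dimmer one. Without that floor the fitted differences were 4.75 ± 0.72 and 4.997 ± 0.53. With only the newborn groups in the fit, the SE for the brighter probe was 0.94.

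Single arrays and the background correction moved the VEGFA values. Without newborn aorta replicate 4 the birth difference in the aorta was -2.59 ± 0.60 and the newborn difference between vessels 5.61 ± 0.60. Without newborn aorta replicate 2 they were -1.14 ± 0.71 and 4.16 ± 0.71. The newborn aorta arrays with a spike-in limit under 1.5 were replicates 1 and 2, both not well above background for VEGFA, as was the single near-term aorta array with such a limit, replicate 1. Among arrays with a limit under 1.5 the newborn difference between vessels was 6.25 ± 0.54, and among arrays above 1.5, which include no newborn ductus, the birth difference in the aorta was -0.58 ± 0.56. With normexp background correction, which shrinks dim signals, newborn ductus exceeded newborn aorta by 2.31 ± 0.41.

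The dimmer VEGFA probe had 0.14, -1.90, -0.79 and -1.40 in newborn ductus and -6.72, -6.66, -6.32 and -4.25 in newborn aorta. It thus kept the gap between the newborn vessels, and its birth differences were 2.34 ± 0.53 (SE) in the ductus and -2.05 ± 0.53 in the aorta. For the aorta its newborn and near-term arrays overlapped, as did those of the brighter probe.

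**Figure D2:**
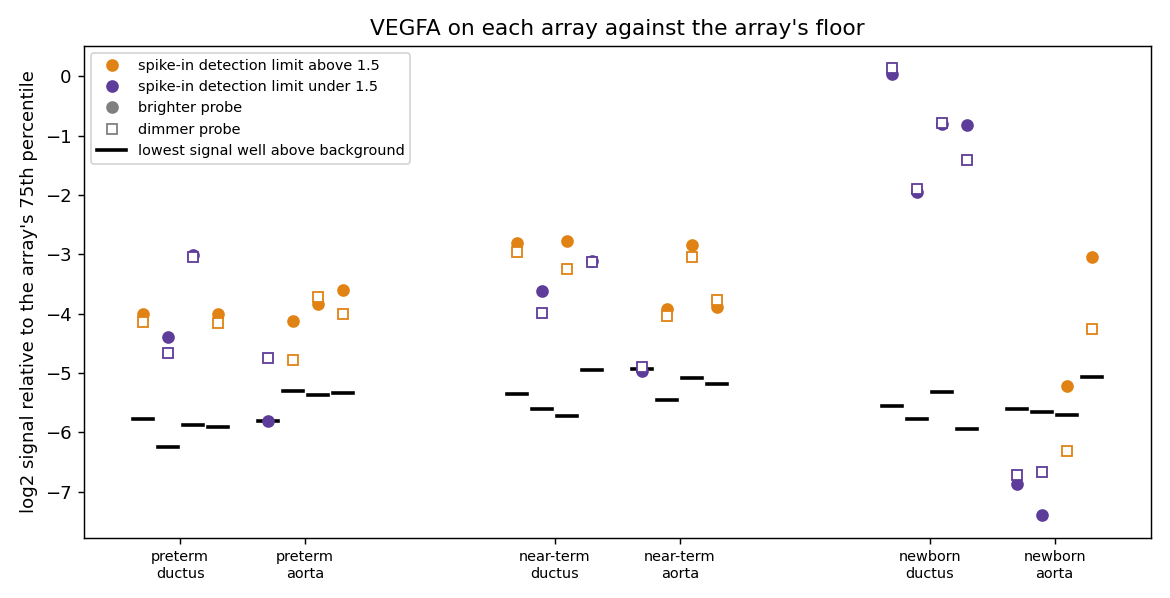
Log2 signal of VEGFA relative to the array's 75th percentile (y axis) on each of the 24 arrays by group (x axis), coloured by whether the spike-in detection limit was above or under 1.5, with a black line at the lowest signal well above background on that array. All newborn ductus points lie far above their lines, and 2 of 4 brighter-probe points and 3 of 4 dimmer-probe points of newborn aorta lie under theirs.

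LDHA, at the lactate end of glycolysis, was higher in the newborn ductus than in the other groups, while its newborn and near-term aorta values overlapped. Its brighter probe read 4.89, 4.26, 4.32 and 4.43 in newborn ductus and 2.67, 3.19, 2.40 and 2.33 in newborn aorta. Near term it read 3.36, 3.04, 3.67 and 3.86 in the ductus and 3.06, 2.74 and 3.20 in the aorta. The spots of preterm aorta replicate 3 and near-term aorta replicate 3 were marked by the scanner software and left out of the fit, so that n = 3 in those groups. All newborn ductus arrays lay above all near-term ductus arrays, and newborn and near-term aorta overlapped.

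The LDHA birth difference was 0.99 ± 0.26 (SE) in the ductus, or 1.99-fold, from means of 4.47 ± 0.28 (SD, n = 4) in newborns and 3.48 ± 0.36 near term. In the aorta it was -0.36 ± 0.28 (SE; 95% interval -0.95 to 0.24), from 2.65 ± 0.39 (SD, n = 4) and 3.00 ± 0.24 (n = 3). With the marked spots kept it was -0.31 ± 0.25. Newborn ductus exceeded newborn aorta by 1.83 ± 0.26, or 3.55-fold, and the difference of the birth differences was 1.35 ± 0.39.

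The dimmer LDHA probe separated the vessels less cleanly. Newborn ductus read 4.73, 4.03, 4.01 and 4.17 and newborn aorta 3.57, 2.93, 1.62 and 1.85, so that the groups did not touch but the aorta arrays spread widely (SD 0.92). The birth differences were 1.10 ± 0.35 (SE) in the ductus and -0.08 ± 0.35 in the aorta. The LDHA probes correlated at r = 0.92 over the 22 arrays with both values, and at 0.77 within groups.

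The 6 probes had the same order at the ends. Newborn ductus had the highest mean and newborn aorta the lowest for all 6, and the step from newborn ductus to the next group down was free of overlap for all 6. At the lower end only the SLC2A3 probes had newborn aorta clear of the next group, preterm aorta, and every other pair of neighbouring groups overlapped for the brighter probes. All 6 probes had every newborn ductus array above every newborn aorta array, which 6.73% of all probes also had. Likewise all 6 had every newborn ductus array above every near-term ductus array, against 7.27% of all probes, and 2 of 6, both SLC2A3, had every newborn aorta array below every near-term aorta array, against 5.58%. Both patterns at once were seen in 22 probes, or 0.157%. SLC2A3 was the 1 gene among the 675 named genes tested, each by its brightest probe, that had them. As only 1260 of 15008 probes carry a gene symbol here, this does not show the patterns to be particular to SLC2A3. These counts use the contrasts that chose the genes and are descriptions. Newborn and near-term arrays of the aorta overlapped for both VEGFA probes, whose newborn values were in part not well above background, and for both LDHA probes.

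**Figure D3:**
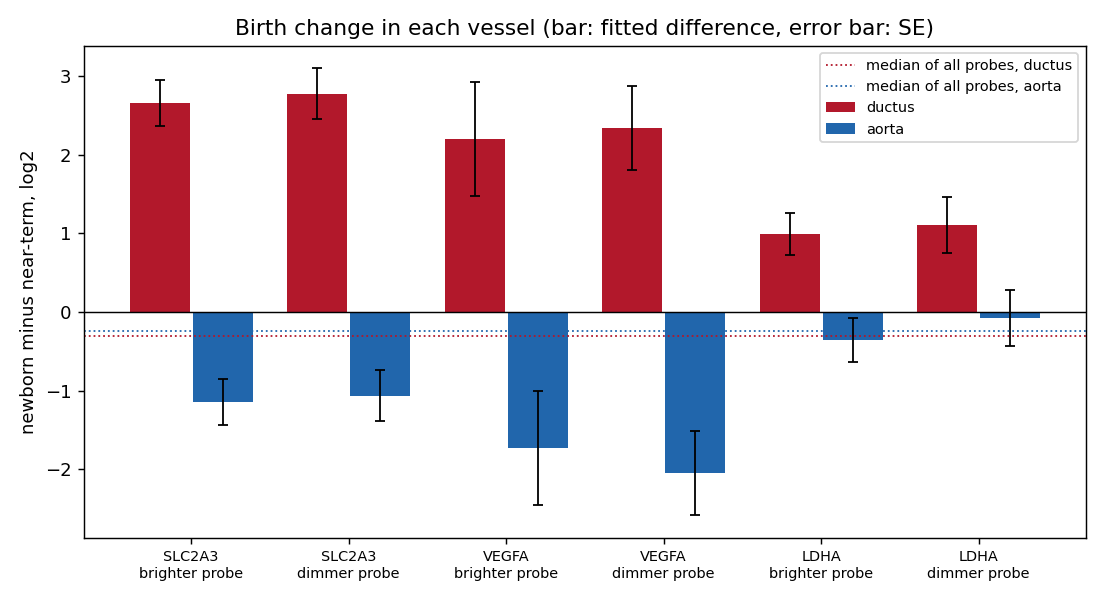
Newborn minus near-term log2 difference (y axis) in ductus (red) and aorta (blue) for the 6 probes (x axis), as fitted differences with SE bars, and dotted lines for the median of all probes in each vessel. The ductus bars run from 0.99 to 2.78 and the aorta bars from -2.05 to -0.08.

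The typical probe was slightly lower after birth on this scale, with a median over all 14000 probes of -0.31 in the ductus, -0.24 in the aorta and -0.19 for the difference between them. The LDHA differences in the aorta lay near that median. The SLC2A3 difference in the aorta lay further from it, although 1781 probes were lower still or equal.

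In preterm fetuses none of the 6 probes passed the test between the vessels. The brighter probes differed by 0.57 ± 0.29 (SE; 95% interval -0.04 to 1.17) for SLC2A3, with an adjusted p = 0.4815 in limma over all probes, and by 0.79 ± 0.28 for LDHA (adjusted p = 0.2958). VEGFA differed by 0.49 ± 0.72 (95% interval -1.01 to 2.00, adjusted p = 0.7623). In this comparison 0.707% of all probes passed, and the unadjusted p was under 0.05 for 1 of the 3 brighter probes, LDHA (0.01264). The differences were above 0 for both probes of each of the 3 genes, while the median of all probes was -0.20. For the brighter VEGFA probe the difference was 0.001 without preterm aorta replicate 1. On arrays with a spike-in limit above 1.5 it was -0.15. With array weights SLC2A3 (0.85 ± 0.29, adjusted p = 0.044) and LDHA (0.96 ± 0.25, adjusted p = 0.0166) passed in limma, and over the other alternatives and with 1 array left out their lowest adjusted p-values were 0.1532 and 0.1587.

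The 3 genes varied together across groups and little within them. Over the arrays SLC2A3 correlated with VEGFA at r = 0.78 (n = 24) and with LDHA at 0.85 (n = 22), and VEGFA with LDHA at 0.70 (n = 22). With group means removed these were -0.12, 0.20 and -0.16. The arrays share slides and group means, and the first set includes the differences between groups.

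Among 674 other named genes, those most like SLC2A3 over the arrays were IL6, an inflammatory cytokine (r = 0.89, and 0.08 within groups), PTGS2, the inducible enzyme of prostaglandin synthesis (0.89), MCL1, a survival factor of the BCL2 family (0.86), LDHA (0.85) and ANXA2, a membrane-binding annexin (0.84). VEGFA was most like TLR2, a receptor for bacterial lipoproteins (0.79), SLC2A3 (0.78), the cytokine gene IL1A (0.78), the transcription factor gene SNAI1 (0.76) and CD86, a co-stimulatory molecule of antigen-presenting cells (0.75). Within groups VEGFA correlated with IL1A at r = 0.90, with SNAI1 at 0.69, with TLR2 at 0.66 and with CD86 at 0.59. This VEGFA probe spread most in newborn aorta (SD 1.96), where it was well above background on only 2 of 4 arrays. The part of background in these correlations was not tested. LDHA was most like GAPDH, an enzyme of glycolysis (0.95 over the arrays, 0.87 within groups). The rest of the LDHA list was ANXA2 (0.90, and 0.51 within groups), SLC2A3 (0.85), PTGS2 (0.84) and IGFBP6, a binding protein for insulin-like growth factors (0.82).

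The other genes of these pathways give the setting. Their lists were chosen with earlier results of these data known, so the counts and p-values are descriptions of these arrays. Of 102 names on 7 lists of hypoxia, glucose, lactate and vessel growth genes, 39 other than the members were measured. Between newborn ductus and newborn aorta 8 of the 39 were higher and 0 lower in limma, and 16 had an unadjusted p under 0.05, where 10.1% of all probes passed and 5.15% passed as higher. With the newborn groups fitted alone 3 of the 8 (EDN1, GAPDH and HK1) still passed, and on arrays with a spike-in limit under 1.5 only HK1 did. Their median difference was -0.22, against -0.28 over all probes. At birth 4 of the 39 pathway genes rose and 2 fell in the ductus, where 10.8% of all probes passed, and 1 rose and 3 fell in the aorta, where 6.44% did. The difference of the birth differences passed for 0 of the 39 (4 had an unadjusted p under 0.05, and 0.393% of all probes passed).

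The subunits of the hypoxia-inducible factors were mostly too dim to compare. Of 12 genes on the list of hypoxia sensing and these factors 6 were measured and 0 passed between the newborn vessels in limma, with 2 at an unadjusted p under 0.05 and a median of -1.55. HIF1A, the oxygen-regulated subunit, averaged -3.50 in newborn ductus and -4.28 in newborn aorta (0.79 ± 0.70 SE, adjusted p = 0.4258 in limma), and a second probe differed by 1.42. HIF3A, ARNT, ARNT2 and EPAS1, each by its brightest probe, were well above background on 0 newborn ductus arrays. The EPAS1 probes varied, with the brightest at -1.27 between the newborn vessels and the others at -0.07, -0.095 and -1.78. CITED2, a competitor of the factors for their co-activator, differed by -0.35 ± 0.54 (adjusted p = 0.6592).

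Of 7 measured genes of the wider hypoxia response 2 were higher in newborn ductus than in newborn aorta, with a median of -0.22. IGFBP3, a binding protein for insulin-like growth factors, was 3.16-fold higher (1.66 ± 0.33, adjusted p = 0.002873), and its birth difference in the ductus was 1.92 ± 0.33 (adjusted p = 0.00076). EDN1, the vasoconstrictor endothelin 1, named here because it passed, was 3.33-fold higher (1.74 ± 0.34, adjusted p = 0.002661), and its birth difference in the ductus was 0.21 ± 0.34 (adjusted p = 0.6754). PLIN2, a lipid droplet coat protein, had a birth difference of 0.70 ± 0.20 in the ductus (adjusted p = 0.02861), lost without near-term ductus replicates 1, 2 or 3 or newborn ductus replicates 2 or 4 (adjusted p up to 0.08465) and held in 6 of 8 alternatives (adjusted p up to 0.1001). LEP, which encodes leptin, was above background on 0 newborn ductus arrays.

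The other measured glucose transporters gave 1 call between the newborn vessels. SLC2A5, which encodes the fructose transporter GLUT5, was the 1 of 6 measured that passed in the newborn vessels, 5.29-fold higher in the ductus (2.40 ± 0.63, adjusted p = 0.0194), and its other probe differed by 2.83. That call was lost without newborn aorta replicate 1 or newborn ductus replicates 1 or 4 (adjusted p 0.05138 to 0.07711), and held in 6 of 9 alternatives (adjusted p up to 0.1845). SLC2A1, the widespread transporter GLUT1, differed by 0.84 ± 0.39 (adjusted p = 0.1668), and its birth difference was 0.76 ± 0.39 in the ductus and -0.08 ± 0.39 in the aorta. SLC2A2 and the sodium-coupled SLC5A1 were above background on 0 newborn ductus arrays. SLC16A1, the monocarboxylate carrier that moves lactate, was the only measured gene of its list of 13 and its probes disagreed, the brighter at 0.76 ± 0.39 (adjusted p = 0.2051) and the other at -2.53.

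Glycolytic enzymes gave 3 of 5 genes higher in newborn ductus than in newborn aorta, with a median of 1.39. Over all probes 5.15% were called higher and the median was -0.28. GAPDH was 2.62-fold higher (1.39 ± 0.26, adjusted p = 0.001934), PFKL, a phosphofructokinase subunit, 2.70-fold (1.43 ± 0.33, adjusted p = 0.008919), and HK1, a hexokinase, 4.49-fold (2.17 ± 0.64, adjusted p = 0.03623). The HK1 call was lost without newborn aorta replicates 3 or 4 or any 1 newborn ductus array (adjusted p 0.06201 to 0.1071). GAPDH probes disagreed, with 3 at 1.25 to 1.39 and the other two at -0.38 and 0.11. ALDOA, an aldolase, differed by 0.48 ± 0.27 (adjusted p = 0.2334). At birth PFKL rose in the ductus (1.13 ± 0.33, adjusted p = 0.03229, up to 0.1095 with 1 array left out: near-term ductus 1, 2 or 3 or newborn ductus 1 or 4), a call held in 6 of 8 alternatives. PFKM, the muscle subunit, fell by 1.80 on the log2 scale in the ductus (adjusted p = 0.003526) and by 1.48 in the aorta (adjusted p = 0.02963, up to 0.1794 without near-term aorta replicates 2 or 3 or newborn aorta replicates 1 or 2), and is named because it passed. The PFKM call in the aorta held in 6 of 8 alternatives (adjusted p up to 0.258).

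Around VEGFA, its family and receptors showed 0 of 5 genes passing in the newborn vessels (median 0.44, 1 with an unadjusted p under 0.05). KDR, the main VEGFA receptor, had probes that disagreed, the brightest at 0.47 ± 0.25 (adjusted p = 0.2191) and the others at 1.17, -1.36 and -2.93. For the birth differences 0 of these 5 genes were above 0 in either vessel. Their median was -1.94 in the ductus, with 0 called, and -0.93 in the aorta. In the ductus the brightest KDR probe differed by -0.62 at birth and the others by -0.95, -2.31 and -3.08. In the aorta the brightest KDR probe fell by 0.93 at birth (adjusted p = 0.03334 in limma). That call was lost when any 1 of near-term aorta replicates 2, 3 or 4 or newborn aorta replicates 1, 2 or 3 was left out (adjusted p up to 0.1183), and held in 3 of 8 alternatives (adjusted p up to 0.2442). PGF, placental growth factor, averaged -3.07 in newborn ductus and -3.93 in newborn aorta (adjusted p = 0.3519). FLT1 and NRP2 were above background on 0 newborn ductus arrays.

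Of 10 measured angiogenic factors ANGPT2 and CXCL8 were higher in newborn ductus than in newborn aorta, with a median of 0.60. ANGPT2, an antagonist of the TEK receptor, was 4.69-fold higher (2.23 ± 0.61, adjusted p = 0.02453), and its other probes differed by 1.67 to 2.05. The ANGPT2 call was lost without newborn aorta replicates 1, 3 or 4 or newborn ductus replicates 1 or 3 (adjusted p 0.05579 to 0.07613), and held in 5 of 9 alternatives (0.74 with adjusted p = 0.2737 under normexp). CXCL8, interleukin 8, was 2.60-fold higher (1.38 ± 0.32, adjusted p = 0.009662) and rose at birth in both vessels, by 4.46 ± 0.32 in the ductus (adjusted p = 5.24e-08) and by 2.99 ± 0.32 in the aorta (adjusted p = 7.53e-05, and 0.1244 with the aorta groups fitted alone). PDGFB, a growth factor for mural cells, fell by 1.31 in the aorta (adjusted p = 0.02905, up to 0.09866 without near-term aorta replicates 1, 3 or 4 or newborn aorta replicates 2 or 3), a call held in 4 of 8 alternatives (adjusted p up to 0.2338). ANGPT1, the activating ligand of TEK, was at least 3.55-fold lower in newborn than in near-term ductus (adjusted p = 0.04039), being well above background on 0 newborn and 3 near-term ductus arrays, and is named because it passed; leaving out either near-term ductus replicate 1 or 3 or any newborn ductus array lost that call (adjusted p up to 0.1465), which held in 6 of 8 alternatives.

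**Figure D4:**
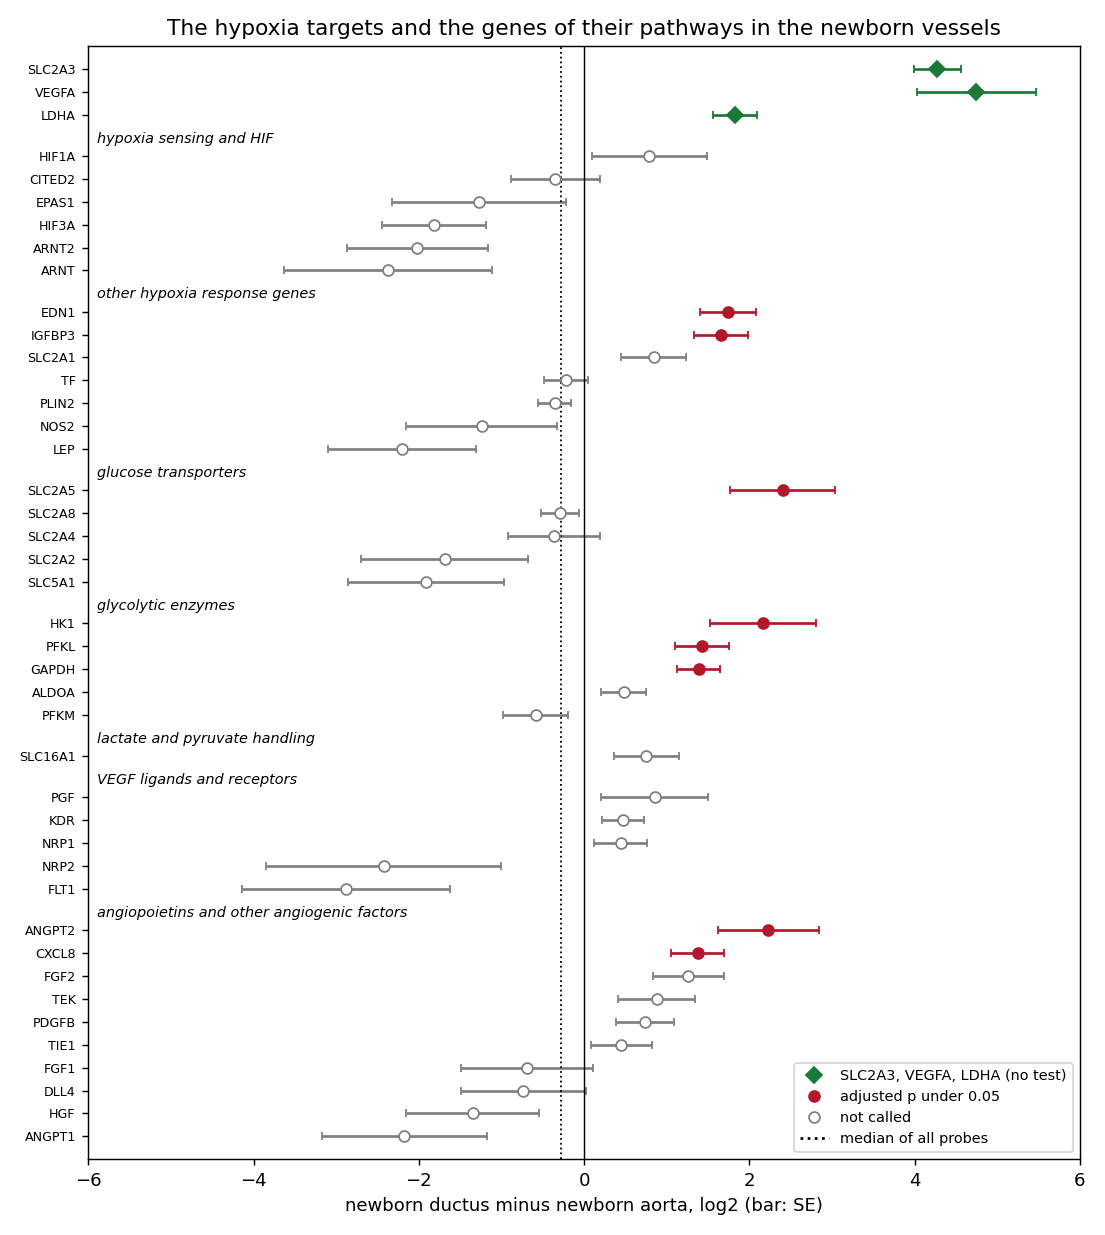
Log2 difference between newborn ductus and newborn aorta (x axis) for SLC2A3, VEGFA and LDHA (green diamonds, no test) and the 39 measured genes of their pathways by list (y axis), with SE bars, filled red where the adjusted p was under 0.05, and a dotted line at the median of all probes. SLC2A3 and VEGFA, chosen by this contrast, lie at 4.28 and 4.75 (VEGFA at 3.99 with the floor and 2.31 with normexp, being dim in newborn aorta), and the highest of the pathway genes as shown is SLC2A5 at 2.40.

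Markers of other cell types also differed between the newborn vessels, and their part in the values above was not tested. The summed level of 6 of 12 endothelial markers was 2.23 to 3.097 times the 75th percentile in newborn ductus and 0.616 to 1.53 in newborn aorta, against 0.850 to 1.72 in near-term ductus and 0.763 to 1.82 in near-term aorta. SELP and NOS3 were higher in newborn ductus, KDR, TEK and TIE1 were not called, and FLT1 was above background on 0 newborn ductus arrays. For 6 of 15 macrophage and neutrophil markers the sum was 1.39 to 1.91 in newborn ductus and 1.24 to 1.97 in newborn aorta, with CD86 higher and CATHL1B and BAC5 lower. The CD86 call held in 7 of 9 alternatives and 7 of 8 fits with 1 array left out, the CATHL1B call in 5 and 2 of them (adjusted p up to 0.1157) and the BAC5 call in 4 and 1 (adjusted p up to 0.1147). For 5 of 13 lymphocyte markers it was 0.389 to 0.822 and 0.181 to 0.781 in the same groups, with CD3D and CD4 above background on 0 newborn ductus arrays. CXCR4 was the 1 called, higher in newborn ductus by 1.92, and held in 8 of 9 alternatives. Of the 5 lymphocyte markers 2 were above 0, with a median of -0.89. For 4 of 8 fibroblast markers it was 47.0 to 74.9 in newborn ductus and 14.4 to 31.9 in newborn aorta. In near-term fetuses this sum was 53.5 to 79.5 in ductus and 21.6 to 42.2 in aorta. Of these 4 markers C3 and DCN were higher in newborn ductus. The collagen genes went the other way and were not called, with COL1A1 at -0.44 and the COL3A1 probes at -0.75, -1.24 and -0.90. HBB, the 1 measured red cell marker of 11, ran from 2.88 to 16.9 in newborn ductus and 0.724 to 6.99 in newborn aorta.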

How the data were processed

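Cy3-labelled RNA of 24 samples was hybridised to single-colour Agilent arrays, 1 sample each. The deposited values are linear spot intensity, processed by Agilent Feature Extraction 9.5.3.1 with background subtraction, per the file headers. From these, log2 of the processed intensity minus log2 of the array's 75th percentile over non-control spots was computed here, marked spots were left out, and spots of 1 probe were averaged. Probes well above background on at least 4 of 24 arrays were tested (14000 of 15008) with limma 3.58.1 in R 4.3.3, fitting a mean for each of the 6 groups, with Benjamini-Hochberg adjustment over all of them, two-sided, calls at an adjusted p under 0.05, and SE from that fit. Symbols came from the array's names and, for names only, from RefSeq's ARS-UI_Ramb_v3.0. A gene of a list is represented by its brightest probe. No probe sequences or coordinates are used here. The fit was also run on simulated arrays with independent normal errors. These held no effect of slide, background or detection limit, so that run cannot speak to those limits.

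The members and lists were chosen with earlier results of these data known. Genes of a list are mostly named by the smallest p in the difference of birth differences (up to 4 a list), or because they passed. On the hypoxia-sensing and endothelial lists all 6 measured genes are named. Alternatives were normexp (offset 50), quantile normalization, median scaling, no filter, a filter of 12 arrays, only the groups compared, arrays with a spike-in limit under or above 1.5, array weights, a replicate block, the dimmer probe, marked spots kept, the VEGFA floor, and leaving out each array. The labels do not say whether a ductus and an aorta with the same replicate number share an animal. Residuals of such pairs correlated between -0.59 and 0.82. As residuals also carry differences between arrays, they cannot decide this.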

Additional observations from a re-analysis of the deposited data

Results flagged for a closer look

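Among 34 groups of 4 values of the member probes, 1 array stood apart by Dixon's test, and chance flags about 5% of such groups. It was newborn aorta replicate 4 for the dimmer VEGFA probe, at -4.25 on the log2 scale against -6.32 for the nearest of the other three, with a gap of 0.838 of the range. That array had the highest spike-in detection limit of its group (2.54), and the part of that limit in the value was not tested.

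SLC2A3 is listed because its newborn arrays lay wholly above the near-term arrays in the ductus and wholly below them in the aorta, with a difference of birth differences of 3.80 for the brighter probe and 3.84 for the dimmer one. As this pattern chose the gene, the difference was not tested.

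Of the genes on the lists of markers and pathways, SELP, the endothelial adhesion receptor P-selectin, passed limma's test of the difference between the birth differences in ductus and aorta (2.61 ± 0.54 SE, adjusted p = 0.0323). Its adjusted p was 0.503 with normexp and 0.178 with quantile normalization, and the call held in 6 of 16 fits with 1 array left out.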

How the results depend on the processing

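The sign of the members' values was that of the main setting in 253 of 259 values under an alternative and in 213 of 216 with 1 array left out. All exceptions were in the near-term minus preterm differences except VEGFA between the preterm vessels, which was -0.15 (adjusted p = 0.9581) on arrays with a spike-in limit above 1.5. With array weights SLC2A3 and LDHA passed between the preterm vessels (0.85 and 0.96), and the SLC2A3 values were 0.94 between the near-term vessels, -0.53 for the birth difference in the aorta and 3.15 for the difference of birth differences. Normexp gave VEGFA 2.31 between the newborn vessels and 2.09 for the difference of birth differences. Arrays with a limit under 1.5 gave VEGFA 6.25 between the newborn vessels and SLC2A3 -0.21 for near-term minus preterm aorta, and those above 1.5 gave VEGFA -0.58 for the birth difference in the aorta. The causes were not tested.

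Of the 39 pathway genes, the 8 higher and 0 lower calls in the newborn vessels were 3 higher with only the groups compared, 4 higher with limits under 1.5, 13 higher and 5 lower with array weights, and 1 lower with median scaling or the replicate block. With 1 array left out they were 6 to 8 higher and 0 to 2 lower (2 without newborn aorta replicate 1). The 4 higher and 2 lower calls for the birth difference in the ductus were 16 lower with normexp and 10 higher and 18 lower with array weights, and 2 to 6 higher and 1 to 4 lower with 1 array left out. In the aorta the 1 higher and 3 lower calls were 1 lower with normexp, 0 lower with median scaling, 0 higher and 0 lower with only the groups compared, 4 higher and 6 lower with array weights, and 1 higher and 0 to 4 lower with 1 array left out. The 0 calls for the difference of birth differences were 1 higher with limits under 1.5 and 3 higher and 4 lower with array weights.

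As a hint from the data only, the replicate number as a replicate block left the preterm SLC2A3 difference at 0.57 (adjusted p = 0.1532), and 5 of 12 pairs correlated best with their own number. The background limits VEGFA in the aorta, and the 4 arrays a group limit all values.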

Other observations

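Of the pathway genes only EDN1 was called between the vessels before birth. Between the preterm vessels 0.707% of all probes passed. EDN1 was 3.94-fold higher in preterm ductus than in preterm aorta (1.98 ± 0.34 SE, adjusted p = 0.00456 in limma) and 2.89-fold higher in near-term ductus than in near-term aorta (1.53 ± 0.34, adjusted p = 0.0262), and its birth difference in the aorta was 0.01 ± 0.34. The near-term call was lost without near-term aorta replicates 1 or 4 or near-term ductus replicates 1, 2 or 3 (adjusted p up to 0.115), and held in 6 of 9 alternatives (0.77 with adjusted p = 0.4612 under normexp). The preterm call held in 8 of 9 (adjusted p = 0.1341 on arrays with a spike-in limit under 1.5). TLR4, a receptor for bacterial lipopolysaccharide on the macrophage list, was lower in preterm ductus than in preterm aorta (-1.46 ± 0.27, adjusted p = 0.00976), and without preterm ductus replicate 1 its adjusted p was 0.05003. The TLR4 call held in 4 of 9 alternatives (-0.83 with adjusted p = 0.4076 under normexp).

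After birth CD14, the co-receptor of TLR4, was higher than near term in the ductus (1.51 ± 0.21, adjusted p = 8.1e-05) and in the aorta (1.07 ± 0.21, adjusted p = 0.00456). The call in the ductus held in 8 of 8 alternatives and that in the aorta in 5 of 8 (0.54 with adjusted p = 0.2188 under normexp). CNN1, which encodes calponin of smooth muscle, was higher in newborn than in near-term aorta (0.83 ± 0.21, adjusted p = 0.0264), a call lost without near-term aorta replicates 1 or 2 or newborn aorta replicates 1, 2 or 3 (adjusted p up to 0.0899) and held in 5 of 8 alternatives (adjusted p up to 0.2455). C3, complement component 3, was 2.63 ± 0.39 higher in newborn ductus than in newborn aorta (adjusted p = 0.000239).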
